A study of Brugia malayi with 68 samples.

Results

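The genes described here are 150 genes of the filarial nematode Brugia malayi whose messenger RNA was read almost entirely in adult males, at moderate abundance. They were chosen by level. A gene's level in a library was taken as CPM, its reads per 1000000 reads counted, and averaged over the untreated libraries of each stage. A gene counted as male-restricted when its male mean was at least 16 times the higher of its female and microfilaria means plus 1 CPM. Of 11590 listed genes, 491 passed. Ranked by falling male mean, the 150 genes end at rank 300, between 150 more abundant and 191 less abundant male-restricted genes.

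Brugia malayi is a mosquito-borne parasite that causes lymphatic filariasis. Adult males and females live side by side in the host, and females release microfilariae, the first-stage larvae that mosquitoes take up. In nematodes, as known best from Caenorhabditis elegans, much male-enriched expression comes from the testis, where spermatocytes make transcripts for sperm proteins, kinases and phosphatases before transcription stops in maturing sperm. A smaller share comes from male-specific neurons, muscle and copulatory structures. Albendazole binds nematode beta-tubulin and hinders microtubule assembly. Ivermectin opens glutamate-gated chloride channels of nerve and muscle. Diethylcarbamazine is an antifilarial drug used in control programmes.

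The series asked how these drugs affect the parasite's expression inside the host. Mongolian gerbils (Meriones unguiculatus) had been infected in the peritoneal cavity with infective larvae and kept until microfilariae were present. The doses were 1 mg/kg of albendazole, 6 mg/kg of diethylcarbamazine and 0.2 mg/kg of ivermectin. The remaining animals were the controls, which the treatment protocol calls untreated and the labels call Control (DMSO). Worms were collected 1 or 7 days later. Males, females and microfilariae of each treatment and day formed groups of 3 libraries, or of 2 for day 7 microfilariae, 68 in all. Each replicate number marks a round in which all treatments were run, per the series' design text, so replicates 1, 2 and 3 are called rounds here. How many animals or worms stand behind a library is not given in the sources used here, so p-values measure the spread between these libraries only.

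The files used here give identifiers with no gene names, and 0 of the 11590 identifiers occurred in the reference table of 11688 Brugia malayi genes. Which of the 150 genes belong to the testis or to other male tissue could not be looked up, and the label "male-restricted" was checked against expression alone. Whole worms were sequenced, so fewer cells of a type and less RNA per cell cannot be told apart in any level below.

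The values that chose the genes are given as a description. Mean levels in the 6 untreated male libraries ran from 74.7 to 154 CPM with a median of 108 CPM. The first of them in rank, WBGene00230234, had a male mean of 154 CPM, and the gene just above it, at rank 150, had 156 CPM. At the other end, WBGene00230174 at rank 300 had 74.7 CPM and the next gene had 74.1 CPM, so neither edge falls at a gap in level. In the untreated females the 150 genes had means of 0.294 to 7.51 CPM (median 1.35), and in the untreated microfilariae 0 to 6.22 CPM (median 0.736). For 57 genes the female mean was under 1 CPM, and for 91 genes the microfilaria mean was. The female mean was above the microfilaria mean in 109 genes. No gene (0 of 150) was without reads in all 6 untreated female libraries, and 1 was without reads in all 5 untreated microfilaria libraries. The ratio used by the rule ran from 16.2 to 96.2, with a median of 41.8. It was under 18 in 10 genes, and 8 genes with a male mean in the same range missed the rule with a ratio between 15 and 16. Counts were ample in males: a gene of the 150 had between 166 and 4972 reads in a male library, with a median of 1693, from male library totals of 6037954 to 27464745 reads.

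The 51 drug-treated libraries took no part in choosing the genes, and there the male restriction held. Compared with drug-treated females, 150 of 150 genes were higher in drug-treated males at an adjusted p under 0.05 (edgeR quasi-likelihood test, Benjamini-Hochberg adjustment over 10876 genes), in a comparison where 84.6% of all genes were called and 41% were called higher. The differences ran from 4.08 to 12.50 on the log2 scale with a median of 6.77. Over the 18 drug-treated female libraries a gene of the 150 had as few as 19 reads in total (median 308). The size of the largest differences therefore rests on few female reads. At least 4-fold higher and called were 150 of the 150, against 13% of all genes. Compared with drug-treated microfilariae, 150 of 150 genes were again higher, where 85.5% of all genes were called and 43% were called higher. Those differences ran from 3.74 to 12.39 on the log2 scale, with a median of 6.49. Of all genes 17.7% were called and at least 4-fold higher. Here too the largest differences rest on few reads, as few as 6 in total over the 15 drug-treated microfilaria libraries (median 237).

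WBGene00230234 had the smallest p against females. It lay between 105 and 187 CPM in the 18 drug-treated male libraries (median 148) and between 0.413 and 2.21 CPM in the 18 drug-treated female libraries (median 0.80). The log2 difference was 7.53 (SE 0.13, edgeR adjusted p = 1.76e-35). The second, WBGene00227673, lay between 71.0 and 127 CPM in drug-treated males and between 1.61 and 4.44 CPM in drug-treated females, a log2 difference of 5.03 (SE 0.090, edgeR adjusted p = 8.03e-35). Against microfilariae the leading gene was WBGene00255727, with 98.7 to 197 CPM in drug-treated males and 0 to 0.852 CPM in the 15 drug-treated microfilaria libraries, and a log2 difference of 8.68 (SE 0.17, edgeR adjusted p = 2.39e-33). It was followed by WBGene00229002, with 73.8 to 146 CPM against 1.57 to 3.40 CPM and a log2 difference of 5.54 (SE 0.11, edgeR adjusted p = 2.39e-33). In each of these genes the groups did not overlap. The same held for all 150 genes in both comparisons, against 17.7% of all listed genes that lay wholly higher in drug-treated males than in females and 23.7% that lay wholly higher than in microfilariae.

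Applied afresh to each drug group and day, the same 16-fold rule was passed by 145 of the 150 genes with albendazole at day 1 and 148 at day 7, by 146 and 145 with diethylcarbamazine, and by 142 and 140 with ivermectin. Of all listed genes, 4.22% and 4.58% passed it with albendazole, 4.57% and 4.51% with diethylcarbamazine, and 4.25% and 4.03% with ivermectin. The lowest ratio of any of the 150 genes in any drug group was 10.02, reached with ivermectin at day 7. All 150 had their highest mean in males in each of the 6 drug groups.

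Together the 150 genes made up a mean of 1.71% of a male library's counts. Their summed level in untreated males at day 1 was 19248, 11336 and 12946 CPM in rounds 1, 2 and 3, a mean of 14510 ± 4181 (SD, n = 3). At day 7 the untreated sums were 20050, 17027 and 18395 CPM, a mean of 18491 ± 1514 (SD, n = 3). The untreated day 1 libraries of rounds 2 and 3 were thus lower than every untreated day 7 library, while that of round 1 lay within the day 7 range.

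With albendazole the sums were 17011, 16807 and 16040 CPM at day 1, a mean of 16619 ± 512 (SD, n = 3), and 18614, 17784 and 21288 CPM at day 7, a mean of 19229 ± 1831 (SD, n = 3). With diethylcarbamazine they were 17205, 16752 and 17609 CPM at day 1, a mean of 17189 ± 429 (SD, n = 3), and 17074, 16647 and 21470 CPM at day 7, a mean of 18397 ± 2670 (SD, n = 3). At day 1 these drug libraries all fell inside the wide untreated range of the same day. At day 7 the albendazole and diethylcarbamazine libraries overlapped the untreated ones, with round 3 of each drug the highest of its group.

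**Figure D1:**
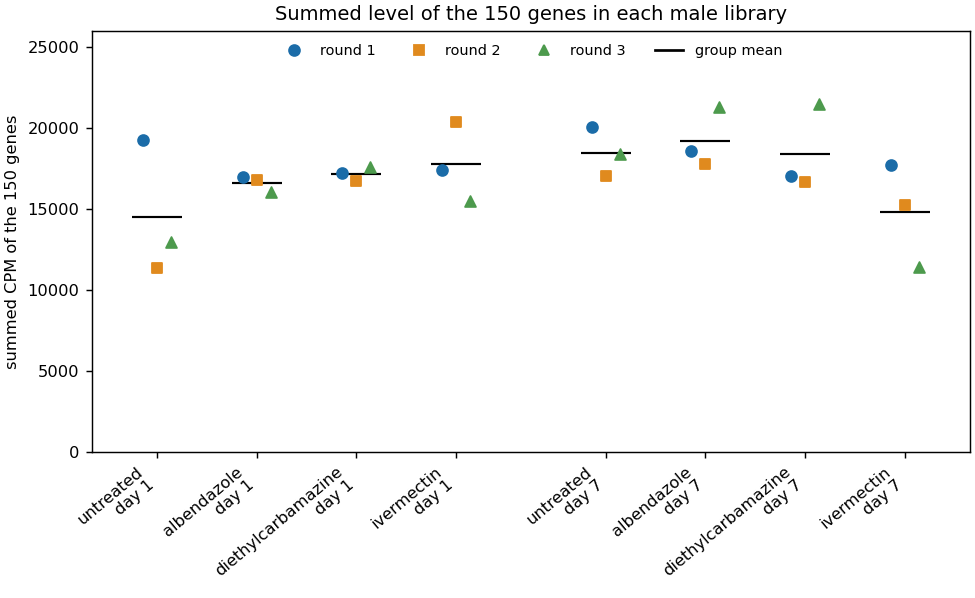
Summed CPM of the 150 genes in each of the 24 male libraries, by treatment and day on the x axis. Points are libraries, coloured and shaped by round, and black lines are the means of 3 libraries. Untreated day 1 males span 11336 to 19248 CPM and ivermectin day 7 males span 11449 to 17747 CPM.

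With ivermectin the sums were 17435, 20384 and 15505 CPM at day 1, a mean of 17775 ± 2457 (SD, n = 3), and 17747, 15243 and 11449 CPM at day 7, a mean of 14813 ± 3171 (SD, n = 3). At day 7 the ivermectin libraries of rounds 2 and 3 lay under all 3 untreated libraries, and that of round 1 lay inside their range. The round 3 library stood apart from all males in make-up: its 100 most abundant genes held 21.3% of counts, against 14.1% at the lowest among males and a median of 15.9%. Its TMM factor, the edgeR scaling that corrects for such a shift in make-up, was 0.787, where the factors of the other 23 libraries lay between 0.931 and 1.13. With that scaling its sum was 14542 CPM in place of 11449.

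Before the tests, 2 facts about the male libraries bear on every comparison. Female-restricted genes (107 genes by the mirror rule) summed to 1.00 to 2.08% of their untreated female level in 20 male libraries. In the other 4 they summed to 11.2% (albendazole day 1, round 1), 9.35% (diethylcarbamazine day 1, round 1), 12.5% (diethylcarbamazine day 7, round 1) and 13.7% (ivermectin day 1, round 2). Levels of the 150 genes in these 4 libraries were 17011, 17205, 17074 and 20384 CPM, within the range of the others. Microfilaria-restricted genes (24 genes) stayed between 0.432 and 0.868% of their own level in all 24 male libraries. The part of these reads in the results was not tested beyond the fits without the 4 libraries.

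None of the 150 genes (0) passed an adjusted p of 0.05 for any drug in males. All 24 male libraries entered one fit of 8 groups over 10347 genes, and 0% of all genes were called in each of the 6 comparisons of a drug with the untreated group of its day. DESeq2 also called 0 of the 150 in each. The 3 drugs share their untreated libraries at each day, so their values below are not independent of each other. These same untreated libraries also set the male means that chose the genes.

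At day 1 the fitted differences lay mostly above 0 with every drug. With albendazole 128 of the 150 genes had a positive log2 difference (52.5% of all genes did), with a median of 0.12, and 0 passed an unadjusted p of 0.05 in edgeR (2.59% of all genes did). With diethylcarbamazine 127 were positive (52.2% of all genes), the median was 0.16, and 5 passed the unadjusted threshold, all higher, as 3.3% of all genes did. With ivermectin 141 were positive (51.4% of all genes), the median was 0.22, and 16 passed the unadjusted threshold, all higher, where 5.84% of all genes did. Medians over all 10347 genes were 0.01 in each. With albendazole, diethylcarbamazine and ivermectin the more abundant male-restricted genes had medians of 0.06, 0.03 and 0.11. The less abundant ones had 0.13, 0.25 and 0.24. A single gene's log2 difference had a median SE of 0.18. Across males the 150 genes varied together, with a median Pearson r of 0.745 between pairs. Counts of positive or passing genes, here and below, are therefore not counts of independent genes.

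These day 1 values turned on which untreated libraries were in the fit. Without the untreated day 1 library of round 1, the highest of the 3, edgeR called 10 genes higher with albendazole, 28 with diethylcarbamazine and 40 with ivermectin, against 0.731%, 1.93% and 3.12% of all genes called in either direction. The group then held 2 libraries. Without the untreated library of round 2, the lowest of the 3, edgeR called 0 in each, and the medians were -0.04, 0.00 and 0.07.

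At day 7 the drugs gave unlike medians. Albendazole had a median log2 difference of 0.01, with 86 of the 150 genes positive (50.8% of all genes) and 0 past an unadjusted p of 0.05 in edgeR (0.406% of all genes). Diethylcarbamazine had a median of -0.04, with 30 positive (48.7% of all genes) and again 0 past the unadjusted threshold (0.831% of all genes). Leaving out each male library in turn moved these medians between -0.03 and 0.09 for albendazole and between -0.14 and 0.03 for diethylcarbamazine. Ivermectin had a median of -0.21, with 6 of the 150 positive where 54.7% of all genes were. Of the others, 20 passed the unadjusted threshold in edgeR, all lower, against 2.07% of all genes. Leaving out each male library in turn, 0 genes were called for ivermectin at day 7 and the median stayed between -0.33 and -0.15. More abundant and less abundant male-restricted genes had day 7 ivermectin medians of -0.23 and -0.19, close to that of the 150 genes.

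**Figure D2:**
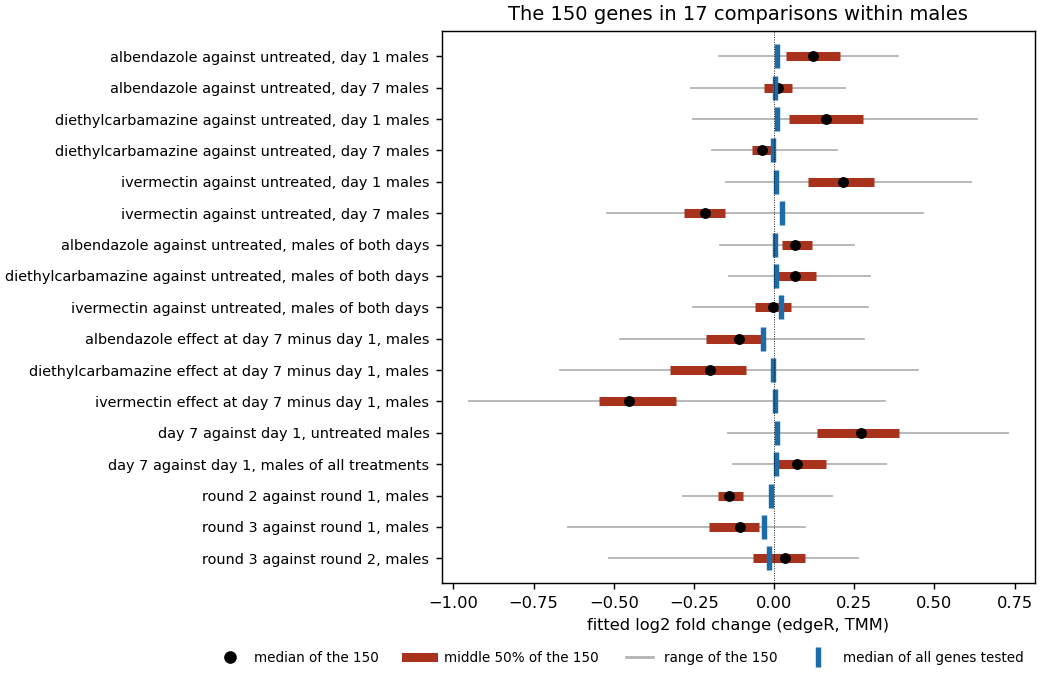
Fitted log2 differences of the 150 genes in the 17 comparisons within males. Black dots are medians, red bars the middle 50% of the genes, grey lines their range and blue ticks the medians of all 10347 genes tested. Medians sit above the blue ticks for every drug at day 1, and lie lowest for the day 7 minus day 1 difference of ivermectin (-0.45).

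The drugs were then averaged over both days. The pooled medians were 0.07 for albendazole, 0.07 for diethylcarbamazine and 0.00 for ivermectin, with 123, 112 and 72 genes positive against 51.2%, 52% and 57% of all genes. They were 0.18, 0.17 and 0.12 without the untreated day 1 library of round 1, and -0.01, -0.01 and -0.07 without that of round 2. edgeR and DESeq2 called 0 of the 150 and edgeR called 0% of all genes in each of the 3. At an unadjusted p of 0.05 edgeR passed 0 of the 150 for each drug, against 1.01%, 2.83% and 3.08% of all genes. With a median SE of 0.13 for the pooled log2 difference of a gene, differences of that size were not detectable for single genes. Larger ones were not called either, up to 0.30 with diethylcarbamazine.

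The genes of smallest p in these pooled comparisons are given as values. WBGene00224088 had a log2 difference of 0.15 (SE 0.10) with albendazole, and WBGene00268924 one of 0.26 (SE 0.16) with diethylcarbamazine. WBGene00222406 had one of -0.25 (SE 0.13, edgeR adjusted p = 1.00) with ivermectin. In untreated males WBGene00222406 read 138, 70.7 and 132 CPM at day 1 and 133, 117 and 128 CPM at day 7. With ivermectin it read 119, 132 and 113 CPM at day 1 and 98.0, 74.0 and 69.2 CPM at day 7. All 3 ivermectin libraries of day 7 were under all 3 untreated ones of that day, while at day 1 the groups overlapped.

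The change of a drug's effect between days was tested as a difference of differences. For ivermectin the median was -0.45, with 6 of the 150 genes positive (50.1% of all genes). At an unadjusted p of 0.05 edgeR passed 47, all lower, against 5.85% of all genes. The more and less abundant male-restricted genes had medians of -0.34 and -0.43. The smallest adjusted p among the 150 was 0.390, so 0 were called, where 0% of all genes were, and DESeq2 called 0. For diethylcarbamazine the median was -0.20, with 14 positive (49.4% of all genes) and 1 past the unadjusted threshold, lower, against 1.23% of all genes. For albendazole it was -0.11, with 33 positive (44.4% of all genes) and 0 past the unadjusted threshold, against 1.21% of all genes. edgeR and DESeq2 called 0 of the 150 for these last drugs too, and edgeR called 0% of all genes. The medians for diethylcarbamazine and albendazole were -0.45 and -0.33 without the untreated day 1 library of round 1, and -0.03 and 0.05 without that of round 2.

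The ivermectin difference between days rested in part on the untreated day 1 libraries. Without the untreated day 1 library of round 1, edgeR called 51 of the 150 genes, all lower, where 3.85% of all genes were called, and the median was -0.68. Without the untreated day 1 library of round 2, edgeR called 0 and the median was -0.30. The median was -0.35 without the 4 libraries of higher female-restricted level, with 0 called. Scaling by library size alone gave -0.64, where the median of all genes was itself -0.21.

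In untreated males most of the 150 genes had higher fitted levels at day 7 than at day 1. The median log2 difference was 0.27, with 139 of 150 genes positive where 51.7% of all genes were. The more and less abundant male-restricted genes had medians of 0.14 and 0.36. At an unadjusted p of 0.05 edgeR passed 32 of the 150, all higher, against 6.24% of all genes. None of the 150 was called by edgeR or DESeq2 (0 of 150, smallest edgeR adjusted p 0.455), and 0% of all genes were called in edgeR. Without the untreated day 1 library of round 1 edgeR called 52 of the 150, all higher, where 4.84% of all genes were called, and without that of round 2 it called 0, with a median of 0.11.

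Over all 4 treatments the day difference was smaller. Its median was 0.07, with 119 genes positive (52.2% of all genes) and 11 past an unadjusted p of 0.05 in edgeR, all higher, against 4.99% of all genes. edgeR called 0 of the 150 and 0% of all genes, and DESeq2 called 0 of the 150. The median was 0.12 without the untreated day 1 library of round 1 and 0.03 without that of round 2. WBGene00221342 had the smallest p of the 150. It read 146, 79.4 and 36.8 CPM in untreated males of day 1 and 153, 147 and 159 CPM in those of day 7. With albendazole it went from 120, 111 and 95.8 CPM to 145, 159 and 179 CPM, and these groups did not overlap. With diethylcarbamazine it read 120, 139 and 141 CPM, then 136, 145 and 175 CPM, and with ivermectin 143, 146 and 109 CPM, then 150, 139 and 82.8 CPM, so with both drugs the days overlapped. Its day difference was 0.35 (SE 0.14, edgeR adjusted p = 0.652).

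Rounds were compared over all male groups, with a single difference per round fitted to both days. Across days, deviations from group means over all genes were no more alike between libraries of the same number than of different numbers. The median r was 0.0038 and 0.0070. Relative to round 1, the 150 genes had a median log2 difference of -0.14 in round 2, with 4 positive (47% of all genes), and of -0.11 in round 3, with 14 positive (41.6% of all genes). At an unadjusted p of 0.05 edgeR passed 13 genes in round 2, all lower, against 5.1% of all genes, and 19 in round 3, all lower, against 9.63%. Round 3 against round 2 had a median of 0.03, with 90 positive (46.2% of all genes), 5 past the unadjusted threshold higher (6.65% of all genes) and 4 lower (11.1%). edgeR called 0 of the 150 in each of the 3 comparisons, where it called 0%, 0.706% and 0% of all genes for round 2 against 1, 3 against 1 and 3 against 2. DESeq2 called 0 of the 150 in each as well.

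Within day 1 alone the medians were -0.15 for round 2 against 1 and -0.15 for round 3 against 1, and within day 7 they were -0.12 and -0.04, with 0 called by edgeR throughout. In untreated males alone they were -0.47 and -0.34. Without the 4 libraries of higher female-restricted level, 3 of which are of round 1, the medians over all groups were -0.32 and -0.23. Without the untreated day 1 library of round 1 alone they were -0.06 and -0.04. Round 3 against round 2 had a median of -0.02 without the untreated day 1 library of round 2.

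Of single genes, WBGene00225837 had the smallest p in round 2 against round 1. It read 129, 70.6 and 104 CPM in untreated day 1 males and 127, 100 and 114 CPM in untreated day 7 males. With albendazole it read 116, 98.9 and 124 CPM, then 102, 105 and 135 CPM. With diethylcarbamazine it read 117, 89.6 and 114 CPM, then 104, 94.9 and 132 CPM, and with ivermectin 119, 124 and 108 CPM, then 99.0, 73.8 and 66.7 CPM. Round 2 was the lowest round in 5 of the 8 groups, and round 3 in both ivermectin groups. Its log2 difference was -0.27 (SE 0.086, edgeR adjusted p = 0.306). WBGene00221720 had the smallest p in round 3 against round 1. It read 189, 94.9 and 84.4 CPM in untreated day 1 males, 147, 166 and 127 CPM with albendazole and 182, 209 and 117 CPM with ivermectin at day 1. Its log2 difference was -0.36 (SE 0.12, edgeR adjusted p = 0.194). With diethylcarbamazine at day 1 it read 181, 176 and 169 CPM. The round 3 library was the lowest in each day 1 group. At day 7 it was the lowest with ivermectin (185, 145 and 105 CPM) and not in untreated males (214, 166 and 176 CPM), with albendazole (181, 195 and 204 CPM) or with diethylcarbamazine (184, 164 and 201 CPM).

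Across the 24 male libraries the 150 genes varied together. Pairs of genes of the list had a median Pearson r of 0.745 on log2(CPM + 1), with quartiles of 0.560 and 0.850, and 95.7% of the 11175 pairs were positive. Over all pairs of the 10347 genes tested the median was 0.129, and 62.3% were positive. Pairs of the more abundant and of the less abundant male-restricted genes had medians of 0.603 and 0.658. All these pairs share the same 24 libraries and their totals. With TMM scaling the medians were 0.626 for the 150 genes, 0.469 and 0.546 for the other male-restricted genes, and -0.01 for all genes. Removing each group's mean left 0.709, against 0.117 for all genes, so the covariation was also present between libraries of the same treatment and day. It was 0.759 without the 4 libraries of higher female-restricted level.

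**Figure D3:**
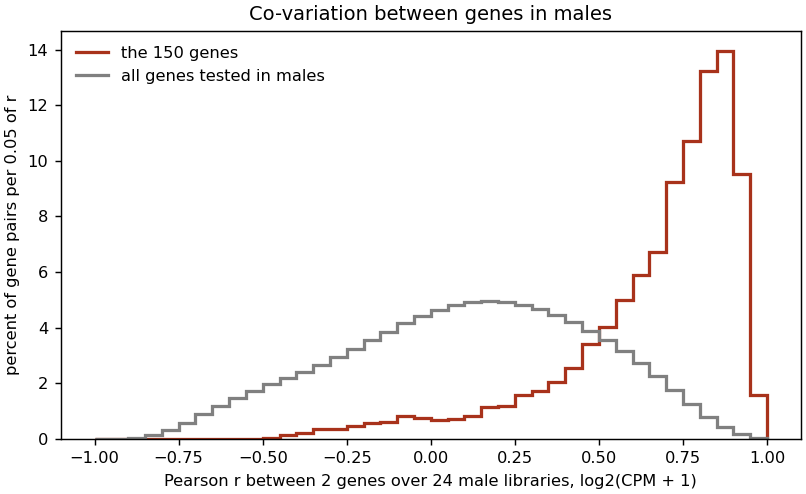
Distribution of Pearson r between pairs of genes over 24 male libraries, as the percent of pairs per 0.05 of r. The red line is the 150 genes (11175 pairs, median 0.745) and the grey line all 10347 genes tested (median 0.129).

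One axis carried most of this variation. On log2(CPM + 1) without TMM scaling, the first principal component of the 150 genes held 68.8% of their variance over the male libraries. The second held 12.4% and the third 8.37%. On the first, 147 of the 150 genes had a weight of the same sign. Its lowest scores were -7.51 in ivermectin day 7 round 3, and -6.61 and -6.59 in untreated day 1 rounds 3 and 2. All other male libraries scored between -2.66 and 4.59. A gene's r with the median of the others had a median of 0.877. It was over 0.9 in 60 genes and over 0.8 in 108, under 0.5 in 10 and under 0 in 3. The range of a single gene was modest: its highest male library was 2.22 times its lowest in the median gene, under 2-fold in 27 genes, 2 to 3-fold in 99 and over 3-fold in 24. The coefficient of variation over 24 libraries ran from 9.45 to 31.1%, with a median of 17.7%.

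Few libraries set those extremes. For 138 of the 150 genes the lowest male library was ivermectin day 7 round 3 (57 genes), untreated day 1 round 2 (43) or untreated day 1 round 3 (38). For 133 the highest was albendazole day 7 round 3 (54), diethylcarbamazine day 7 round 3 (45) or ivermectin day 1 round 2 (34). Both counts are on CPM without TMM scaling. They were not made for all genes, so they do not show a trait particular to the 150 genes. On CPM, round 3 thus supplied both ends at day 7. With TMM scaling the sums were 18876 CPM in albendazole round 3 (factor 1.13) and 19964 CPM in diethylcarbamazine round 3. The highest day 7 sum was then 20026 CPM, in untreated round 1, and the lowest was still ivermectin round 3 at 14542 CPM. Untreated day 1 rounds 2 and 3 were lower, at 11875 and 13909 CPM. In untreated day 1 round 2 the median gene was at 0.656 times its own mean over the male libraries, and in ivermectin day 7 round 3 at 0.621 times, where the medians of all genes were 0.943 and 0.763. In the day 7 round 3 libraries of albendazole and diethylcarbamazine the median gene was at 1.27 times its mean in each, where all genes had medians of 1.14 and 1.08.

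**Figure D4:**
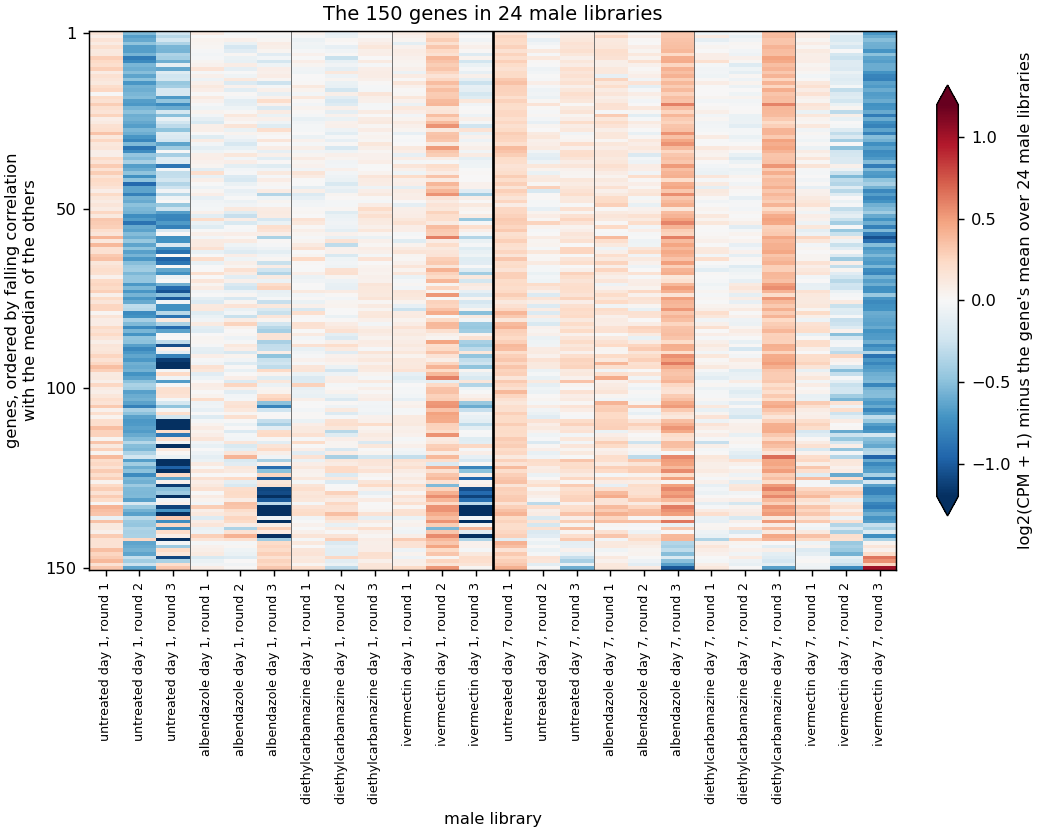
The 150 genes (rows, ordered by falling correlation with the median of the others) in 24 male libraries (columns, day 1 left and day 7 right of the thick line). Colour is log2(CPM + 1) minus the gene's mean over the 24 libraries. Most rows are blue in untreated day 1 round 2 and ivermectin day 7 round 3. Most are red in the round 3 libraries of albendazole and diethylcarbamazine at day 7. In day 1 round 3 of untreated, albendazole and ivermectin males dark blue is limited to some rows.

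The libraries of day 1 round 3 were low in a different way, in some genes and not in others. In the untreated one, 21 of the 150 genes lay under 0.5 times their own mean, against 11.3% of all genes. In the albendazole one 10 did (5.53% of all genes) and in the ivermectin one 9 did (5.44%). In the diethylcarbamazine library of that day and round it was 0 of 150, against 1.65% of all genes. These shares of the 150 genes, 14, 6.67 and 6% in the first 3 libraries, are near those of all genes. The 9 genes low with ivermectin were all among the 10 low with albendazole, whereas 3 of them were also low in the untreated library. Those 3 genes, low in all 3 libraries, are 2% of the 150, and 1.99% of all genes were low in all 3. Of the other 20 male libraries, only ivermectin day 7 round 3 (2 genes) and albendazole day 7 round 3 (1 gene) had any of the 150 genes that low, where 3.39 and 4.64% of all genes were.

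WBGene00221658 is 1 of those 3 genes and had the smallest p among genes lower in round 3 than in round 2. It read 118, 65.0 and 40.6 CPM in untreated males of day 1, 109, 112 and 34.9 CPM with albendazole and 89.9, 129 and 36.1 CPM with ivermectin. With diethylcarbamazine at day 1 it read 99.2, 100 and 89.7 CPM. The drop in round 3 was thus seen in 3 of the 4 day 1 groups. At day 7 it read 109, 102 and 102 CPM in untreated males, 116, 106 and 136 CPM with albendazole, 87.9, 91.2 and 128 CPM with diethylcarbamazine and 112, 102 and 49.1 CPM with ivermectin. Its log2 difference between rounds 3 and 2 was -0.51 (SE 0.23, edgeR adjusted p = 0.256).

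Leaving out the 4 male libraries of day 1 round 3 drew the 150 genes closer together. The median pairwise r was then 0.866, against 0.165 for all genes, and 0.770 and 0.788 for the more and less abundant male-restricted genes.

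Single genes departed from the shared pattern in either direction. WBGene00222046 had the lowest coefficient of variation, 9.45%. It read 136, 103 and 134 CPM in untreated males of day 1 and 158, 125 and 145 CPM in those of day 7, and in the drug groups it stayed between 105 and 149 CPM. Its lowest library was still untreated day 1 round 2. WBGene00229657 had the highest coefficient of variation, 31.1%, and an r of -0.24 with the median of the others. It read 163, 83.8 and 163 CPM in untreated day 1 males and 125, 76.4 and 264 CPM with ivermectin at day 7, where round 3 was the highest of its 24 values. In round 3 of day 7 it was lowest elsewhere: 86.2 CPM in untreated males, 63.7 CPM with albendazole and 82.5 CPM with diethylcarbamazine. In the albendazole, diethylcarbamazine and ivermectin libraries of that round its levels thus ran against those of most of the other genes.

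WBGene00221851, chosen after its values were seen as the gene with the widest range, read 145, 153 and 28.4 CPM in untreated day 1 males. Its lowest library was 6.01-fold under its highest. With diethylcarbamazine at day 7 it read 99.5, 156 and 171 CPM, and with ivermectin at day 1 159, 169 and 99.3 CPM. WBGene00230174, at the lower edge of the list, followed the common pattern. It read 80.5, 55.3 and 58.0 CPM in untreated day 1 males and 94.4, 71.0 and 89.0 CPM in untreated day 7 males. With ivermectin it read 71.9, 94.6 and 82.5 CPM at day 1 and 79.3, 66.3 and 45.6 CPM at day 7. Its lowest values fell in the libraries where the summed level was low.

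Neither day, treatment nor round alone took up much of a gene's variance between males. On log2 CPM with TMM scaling the median gene of the 150 had 3.81% of its variance between days, 6.28% between treatments and 11.4% between rounds, against 3.70, 7.82 and 11.8% for all genes. Degrees of freedom alone would give 4.35, 13 and 8.70%. The joint terms held 17.1% for day by treatment, 29.7% for treatment by round and 4.38% for day by round, against 12.0, 24.1 and 9.76% for all genes. Degrees of freedom alone would give 13, 26.1 and 8.70% for these. The remaining 17.2% (18.4% for all genes) is the 3-way term, which no replicate library separates from error.

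The balance among male-restricted genes was steadier than their total. The summed level of the 150 genes was 26.7% (median over males) of that of the 150 more abundant genes. It was 20.5% in untreated day 1 round 3 and 20.2% in ivermectin day 7 round 3, at least 25.02% in the other 22 libraries, and highest, at 30.4%, in albendazole day 7 round 3. In untreated day 1 round 2, the library with the lowest sum of the 150 genes, this ratio was 25.1%, so there the more abundant genes were lower in near proportion.

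In the other stages the 150 genes were read at a trace level. Their sum in the 24 female libraries ran from 110 to 544 CPM with a median of 240 CPM, which is 0.665 to 3.30% (median 1.45%) of the mean untreated male level. In the 20 microfilaria libraries it ran from 160 to 540 CPM with a median of 239 CPM. Untreated libraries of both stages entered the rule. Group means of drug-treated females lay between 202 and 249 CPM, and 5 of the 6 groups lay between 232 and 249.

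Single libraries stood out. In the untreated day 7 female library of round 2 the sum was 544 CPM, and all but 1 of the 150 genes were above their median over females. The excess amounted to a median of 1.84% of the male level per gene, with quartiles of 1.42 and 2.30%. In the diethylcarbamazine day 1 female library of round 1 the sum was 413 CPM and 141 genes were above their median. In these libraries the excess of the 150 genes was 28.5 and 26.3% of the excess of the 150 more abundant genes. Between these lists in males it was 26.7%. The source of the excess was not tested. At the low end were the day 1 round 3 females of the untreated (129 CPM), diethylcarbamazine (110 CPM) and ivermectin (141 CPM) groups, with 233 CPM in the albendazole one. The 100 most abundant genes held 20.7, 20.8 and 19.7% of counts in those 3, against 12.3% in the albendazole library.

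**Figure D5:**
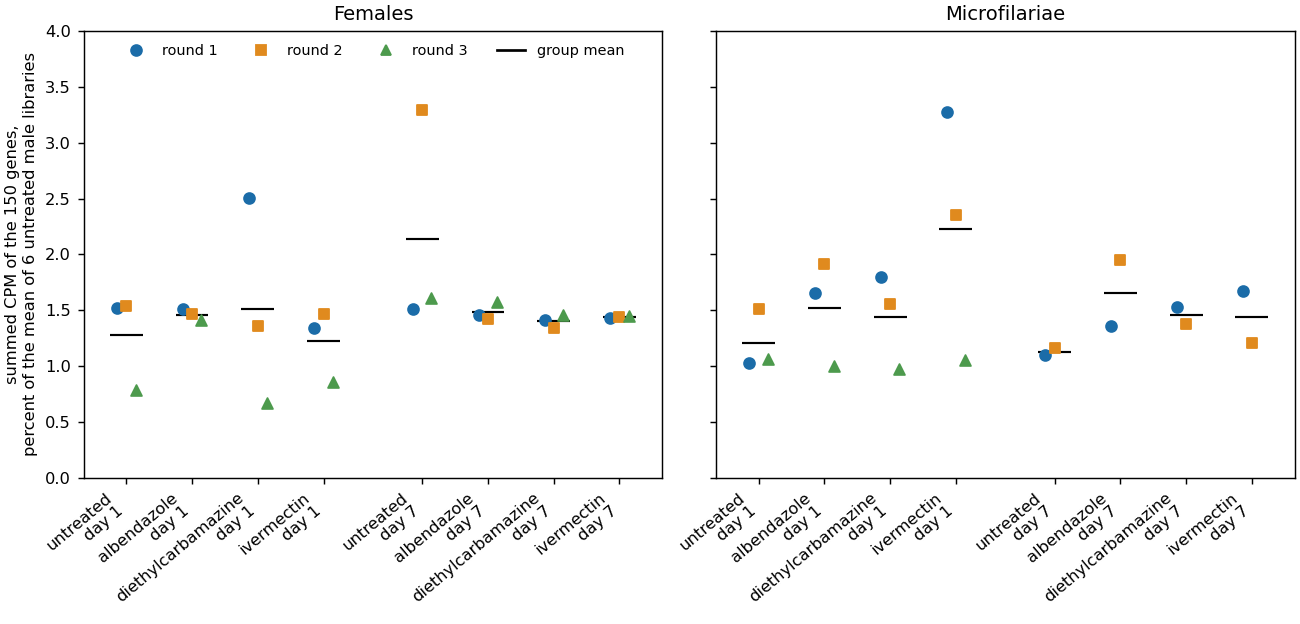
Summed CPM of the 150 genes in each female (left) and microfilaria (right) library, as a percent of the mean of the 6 untreated male libraries. Points are libraries by round and lines are group means. Untreated day 7 round 2 (3.30%) and diethylcarbamazine day 1 round 1 (2.50%) stand out in females, ivermectin day 1 rounds 1 (3.27%) and 2 (2.35%) in microfilariae.

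Among microfilariae the highest sums were with ivermectin at day 1, 540, 388 and 174 CPM in rounds 1, 2 and 3, against 170, 250 and 176 CPM in untreated ones. With albendazole they were 273, 316 and 166 CPM and with diethylcarbamazine 296, 257 and 160 CPM. With each drug rounds 1 and 2 thus lay above all untreated day 1 libraries, and round 3 lay among or below them. Female-restricted genes were also highest in ivermectin rounds 1 and 2, at 1.26 and 1.11% of their untreated female level, where the other 18 microfilaria libraries had 0.607 to 1.02%. Their part in these sums was not tested. All 4 round 3 libraries of day 1 lay between 160 and 176 CPM. In ivermectin round 1 the excess over the median library was uneven among the genes, with quartiles of 0.468 and 2.85% of the male level. It was 109% of the excess of the 150 more abundant genes, where the ratio between these lists in males was 26.7%. The source of this excess was not tested either. At day 7 the ivermectin libraries read 276 and 199 CPM, against 181 and 191 CPM in untreated ones.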

How the data were processed

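RNA sequencing libraries of males, females and microfilariae were analysed from the deposited table of raw read counts per gene, which the authors had not normalised. Per the submitters' processing notes, the tools used were TopHat2 2.0.14 and HTSeq 0.6.1p1. The genome build and counting options are not given in the sources used here. Near-identical copies of a gene can share reads in such counts.

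CPM used the column total. Tests were two-sided edgeR 4.0.16 quasi-likelihood tests (R 4.3.3, limma 3.58.1) with TMM scaling and filterByExpr (minimum count 10, minimum total 15), with Benjamini-Hochberg adjustment over all genes and a threshold of 0.05. One fit of 8 group means held the 24 male libraries (10347 genes, common biological coefficient of variation 0.207) and another the 51 drug-treated libraries (10876 genes). Rounds were compared with replicate number beside group. All 150 genes passed both filters. The fits were also run on simulated counts, drawn independently for each gene. Those counts lack the covariation of the 150 genes, so they do not bear on calls that turn on single libraries. Correlations used log2(CPM + 1) except where TMM scaling is named. Summaries and figures used Python 3.11.15, numpy 2.4.6, pandas 2.3.3 and matplotlib 3.10.9.

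The genes, lists and comparisons were chosen with earlier results of these data known. Identifiers given are the first and the last rank, the lowest and highest coefficient of variation, the 2 smallest p in comparisons with calls, and the smallest p per direction in pooled drug, day and round comparisons, of which some are printed. Replicate numbers pair libraries of a round, per the series' design text. Deviations from group means, over all genes on log2 CPM with TMM scaling, were correlated between libraries. For the same number the median r was 0.194 at day 1 and 0.166 at day 7. Single pairs of libraries ran from -0.268 to 0.775 and from -0.571 to 0.546. For different numbers the medians were -0.122 and -0.119. Deviations cancel within a group, so these medians are not separate evidence of pairing. Across days the median r was 0.0038 for the same number and 0.0070 for different numbers. No libraries held identical values (0 pairs). Alternatives were RLE factors, library size alone, DESeq2 1.42.0, no gene filter, a replicate block, each library left out, and fits without 4 libraries of higher female-restricted level or without day 1 round 3.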

Additional observations from a re-analysis of the deposited data

How the results depend on the processing

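Of 581 values recomputed for 29 results, 576 stayed within the limits of the result: a count of genes called, or a list size, within 1.5 times, and a level or a correlation within 1 SD. The main count was 0 in all 17 comparisons within males, so most of these values set a count of 0 against 0. The tally therefore says little about the size of a difference. The sign of a median over the 150 genes did not enter this tally, and for 8 of the 17 comparisons within males it changed when 1 library was left out. The lowest and highest such medians were -0.04 and 0.36 for albendazole at day 1, -0.03 and 0.09 at day 7, -0.01 and 0.18 over both days, and -0.33 and 0.05 for its difference between days. They were -0.14 and 0.03 for diethylcarbamazine at day 7, -0.01 and 0.17 over both days, -0.07 and 0.12 for ivermectin over both days, and -0.02 and 0.08 for round 3 against round 2. The 5 values outside those limits all came from leaving out the untreated day 1 male library of round 1, so that group held 2 libraries. Over fits that left out each male library in turn, the genes called ran from 0 to 10 for albendazole at day 1, from 0 to 28 for diethylcarbamazine at day 1, from 0 to 40 for ivermectin at day 1, from 0 to 51 for the ivermectin difference between days and from 0 to 52 for day 7 against day 1 in untreated males. The cause was not tested. In the other 12 comparisons within males the count was 0 each time. With the replicate block, over rounds or within day, edgeR called 0 of the 150 genes in each drug and day comparison and 150 in both stage comparisons, so the pairing changed no call. Library size alone and the fits without day 1 round 3, like the removal of group means, were chosen after seeing the data.

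Library size alone moved the median of all genes to -0.10 for ivermectin at day 7, where the 150 genes had -0.33. The list itself depended little on scaling: the same rule with TMM-scaled CPM shared 143 of its 150 genes with it, and with medians in place of means 137. With 3 libraries a group, a gene's log2 difference on 1 day had a median SE of 0.18. Differences of that size were not detectable in single genes. Larger ones were not called either, up to 0.63 with diethylcarbamazine at day 1.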

Other observations

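The less abundant male-restricted genes, below rank 300, showed the day 1 round 3 libraries more sharply than the 150 genes did. Their summed level was 48.6% of that of the 150 genes in untreated males, 47.9% with albendazole and 48.9% with ivermectin in day 1 round 3. In all other male libraries it was between 53.6 and 59.0%, the diethylcarbamazine library of day 1 round 3 included at 53.9%. Of these 191 genes, 56 (29.3%) lay under 0.5 times their own mean in the untreated library, 36 (18.85%) in the albendazole one and 33 (17.3%) in the ivermectin one. Of all genes 11.3, 5.53 and 5.44% did. Of the 150 most abundant male-restricted genes 6, 8 and 8 did (4, 5.33 and 5.33%). Why these libraries differ was not tested.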
